A study of Mus musculus with 4 samples.

Results

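Mature migratory dendritic cells were taken from the CD45-positive gate of MB49 tumours, where they numbered 177 of 9974 kept cells. CD45 is the pan-leukocyte surface protein, and MB49 is a mouse bladder carcinoma line; the tumours had been grown in male or female mice, and neither the strain nor the age of the animals is stated in the labels. Whole transcriptomes of single sorted cells had been counted by unique molecular identifiers (UMIs) in microwells, with 1 library for each combination of sex and gate, 4 libraries in all. Every male against female comparison therefore sets 1 library against 1 library with no replicate check, and how many mice or tumours were pooled into a library is not stated in the labels. A cell was selected on at least 2 UMIs each of Ccr7 and Fscn1, less than 0.3% of its UMIs from C1qa, C1qb and C1qc together, no UMI of Cd3d, Cd3e or Cd3g, and at least 500 UMIs, at least 250 detected genes and at most 25% mitochondrially encoded UMIs. This gave 123 cells of 5379 kept in the male library and 54 of 4595 in the female library.

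Dendritic cells take up antigen in tissues and present it to T cells. On maturation they stop sampling, raise costimulatory ligands and the chemokine receptor CCR7, which guides them along lymphatic chemokine gradients to draining lymph nodes, and remodel their actin with fascin. In tumours such cells are known for carrying T cell stimulatory and inhibitory genes side by side, and they can arise from either type 1 or type 2 conventional dendritic cells.

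Median depth was 5720 UMIs per male member and 5995.5 UMIs per female member, with 2044 detected genes per male member and 2205.5 per female member. Their summed UMIs came to 806368 for male members and 372026 for female members. Levels are given as CPM, a gene's UMIs per 1000000 summed UMIs, and intervals are exact 95% intervals that cover counting error only. No test between groups was possible with 1 library each.

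The label was checked against 5 markers. Ccr7, the receptor used in the selection, had 2 to 71 UMIs per male member (median 16) and 2 to 57 UMIs per female member (median 18.5). Its level was 3047 CPM (2928 to 3170) in male members and 2873 CPM (2704 to 3051) in female members. Fscn1, which encodes the actin-bundling protein fascin and was also used in the selection, had 5533 CPM in male members and 4462 CPM in female members, with medians of 28 and 26.5 UMIs per cell. The distributions of both genes overlapped over nearly their whole range.

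The other markers were not used to choose cells, although they come from the same transcriptomes. Ccl22, a chemokine that attracts regulatory and other CCR4-bearing T cells, was detected in 109 of 123 male members and 48 of 54 female members. Cacnb3, a calcium channel beta subunit, was detected in 121 male members and 50 female members. In T cells of the same libraries, which should lack both genes, Ccl22 was seen in 4.42% of male cells and 3.25% of female cells and Cacnb3 in 1.51% and 3.25%, at a median depth of 2587 UMIs in male T cells and 2977 UMIs in female T cells. Il4i1, a secreted amino acid oxidase, went against the label with 1 UMI in all male members and 0 UMIs in all female members, which allows up to 8.06 CPM in female members. In the GRCm38 annotation Il4i1 (chromosome 7, 44816387 to 44840809, plus strand) overlaps Nup62 (chromosome 7, 44816088 to 44830812, plus strand); whether the counting assigned their shared reads elsewhere was not tested. Ccr7 and Fscn1 were present in every member by the rule, so beyond the selection the name rests on Ccl22 and Cacnb3. Both of these were carried by 108 male and 47 female members.

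**Figure D1:**
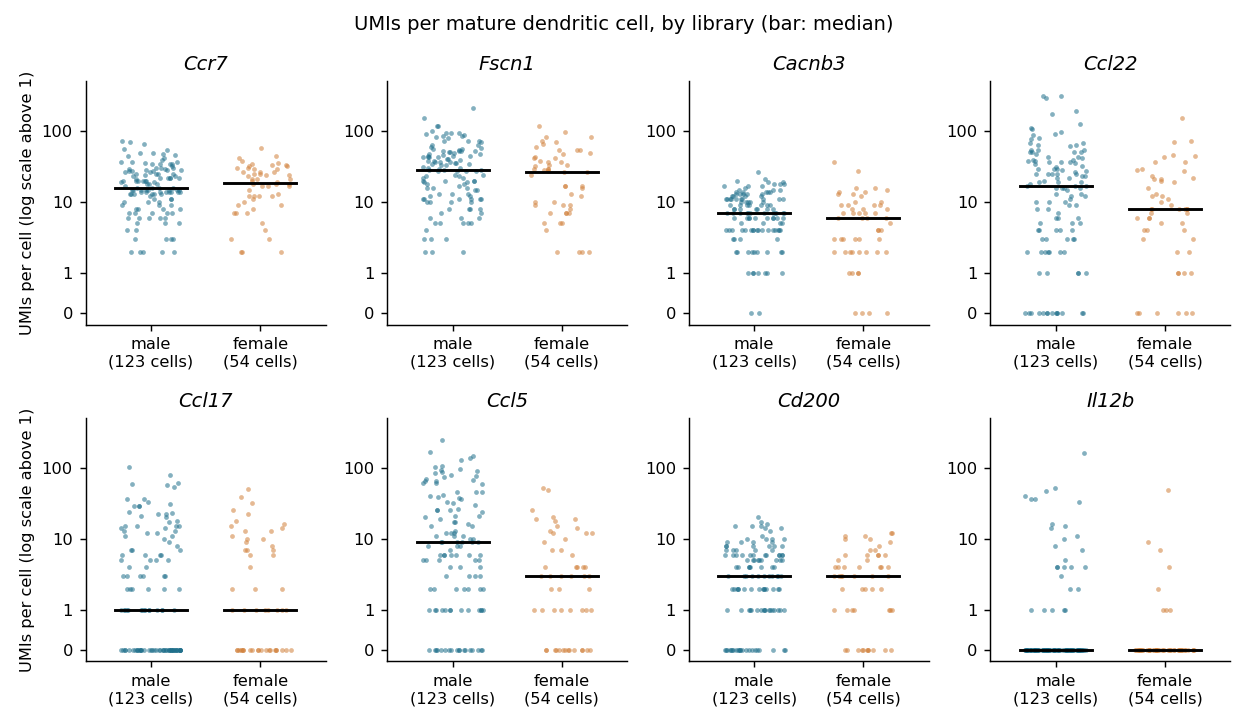
UMIs of 8 genes in each mature dendritic cell (points, vertical axis, log scale above 1) of the male library (123 cells, left) and the female library (54 cells, right), with the median as a bar. Ccr7, Fscn1, Cacnb3 and Cd200 covered a like range in both libraries, while the Ccl22 median was 17 in male cells and 8 in female cells, the Ccl5 median was 9 and 3, and most cells had no Il12b UMI.

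Ccl22 levels of cells just inside the thresholds rested on single cells. In the male library, 8 members had Ccr7 or Fscn1 at exactly 2 UMIs and averaged 3219 CPM of Ccl22, while 19 cells just outside, with 1 UMI of the lower gene, averaged 1021 CPM. Of the 94 Ccl22 UMIs in these 8 members, 77 were in 1 cell, and the other 7 members had 907 CPM. In the female library the 6 members at the edge had 398 CPM of Ccl22, or 155 CPM without the cell with most, and the 12 cells just outside had 101 CPM. Cells that met the rule except for a C1q share of at least 0.3% numbered 7 male and 5 female cells, and those set aside for Cd3 UMIs alone numbered 10 and 8.

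Members made up 2.29% of kept male cells (1.90 to 2.72%) and 1.18% of kept female cells (0.884 to 1.53%), a ratio of 1.95 (1.40 to 2.73). Type 1 dendritic cells, chosen by Xcr1 and Clec9a, numbered 133 male and 10 female cells, and type 2 dendritic cells, chosen by Cd209a, 218 male and 116 female cells. Of the dendritic cells of these 3 kinds, members were 25.9% of 474 male cells (22.1 to 30.1%) and 30% of 180 female cells (23.4 to 37.3%), so the intervals of this share overlapped. The gate share depended on the C1q limit: with less than 0.1% C1q, 115 male and 23 female members remained and the ratio was 4.27. A C1q share of at least 0.1% was seen in 8 of 123 male members and 31 of 54 female members, and in 34.6% of male and 72.3% of female T cells taken without a C1q limit, which do not make C1q. C1q seen in T cells thus differed between the libraries. Whether it came from background RNA or from doublets was not tested, nor was its part in the share.

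A total of 3 members carried many keratin UMIs. One male member had 106 UMIs of Krt8 and Krt18, the keratins of simple epithelium and of carcinoma cells, and 2 female members had 88 and 96, while no other member of either library had more than 1. The male cell held 30220 UMIs and the female cells 17832 and 28269 UMIs, and their Ccl22 UMIs were 0 in the male cell and 1 in the female cells together. Markers of lymphocytes were scarce: the 8 T cell markers summed to 105 CPM in male members and 96.8 CPM in female members, with Cd5 and Cd28 at 0 in both. The 6 NK cell markers summed to 7.44 and 18.8 CPM, with Eomes at 0 in both libraries, and the 6 B cell and plasma cell markers to 26.0 and 2.69 CPM, with Cd79a and Ms4a1 at 0 in both. The 5 plasmacytoid dendritic cell markers summed to 0 and 5.38 CPM, with Siglech at 0 in both. Neutrophil markers summed to 60.8 CPM in male members and 32.3 CPM in female members, with Retnlg at 0 in both, and mast cell and basophil markers to 23.6 and 26.9 CPM, with Fcer1a at 0 in both. Monocyte markers summed to 136 CPM in male members and 288 CPM in female members. Macrophage markers summed to 449 CPM in male members and 1613 CPM in female members, with none of the 8 at 0. Carcinoma and epithelial markers summed to 154 and 567 CPM, with Krt5, Krt7 and Epcam at 0, and fibroblast and endothelial markers to 90.5 and 341 CPM, with Cdh5 at 0.

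Against all other kept cells of the gate, the members had higher levels of many genes of migration and dendritic cell maturation and lower levels of most uptake genes. These values describe cells chosen on the same transcriptomes and carry no test. Of 3627 genes with enough UMIs, 169 (4.66%) were at least 4-fold higher in members in both libraries and 232 (6.4%) were at least 4-fold lower in both. Fscn1 was 323-fold higher among male cells and 199-fold higher among female cells. It was used in the selection, so its fold and its share of UMIs in members were set high by the rule. Members, 2.29% and 1.18% of the cells, held 86.8% of the male gate's Fscn1 UMIs and 66.7% of the female gate's, 74.2% and 48.8% of its Cacnb3 UMIs, and 59.5% and 47.5% of its Ccl22 UMIs.

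**Figure D2:**
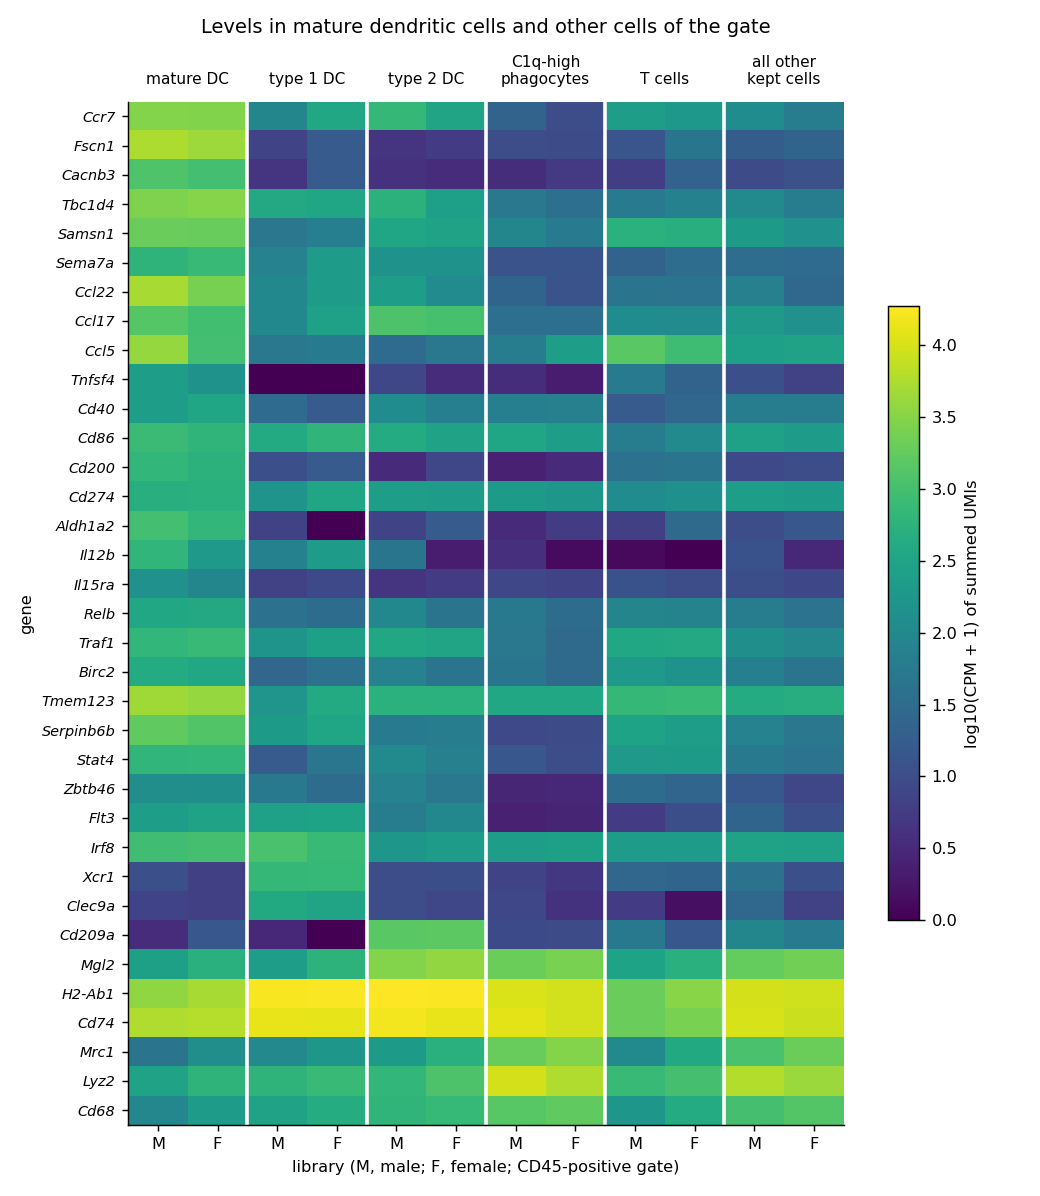
Levels of 35 genes (rows) as log10(CPM + 1) of summed UMIs in mature dendritic cells, type 1 and type 2 dendritic cells, C1q-high phagocytes, T cells and all other kept cells, each in the male (M) and female (F) CD45-positive library. Fscn1 and Cacnb3 stood at 4462 and 995 CPM or above in mature dendritic cells of both libraries and at 44.1 and 21.1 CPM or below elsewhere, whereas H2-Ab1 and Cd74 were highest in type 1 and type 2 dendritic cells. Ccr7 and Fscn1 were used in the selection.

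Of 15 measured genes of migration, adhesion and the cytoskeleton, 8 were at least 4-fold higher in members in both libraries and none was 4-fold lower; the list's median log2 fold was 2.45 for male and 2.91 for female cells, against -0.15 and -0.08 over all 3627 genes. Ccr7 and Fscn1 both count among the 8. They were used in the selection, so their high levels were set by the rule. Cacnb3, a marker of the label, is also among the 8. Ccr7 was 25.9-fold and 44.5-fold higher. Tbc1d4, a Rab GTPase-activating protein of vesicle traffic, had 2739 CPM in male members and 3140 CPM in female members, against 110 and 62.2 CPM in the other cells. Sema7a, a membrane-anchored semaphorin, had 600 and 761 CPM in members, against 32.7 and 29.7 CPM. Net1, a guanine nucleotide exchange factor, was 14-fold and 16.1-fold higher, and Samsn1, an adaptor protein, 9.23-fold and 13.4-fold. Cd44, the hyaluronan receptor, ran the other way at 227 CPM in male members and 309 CPM in female members, against 525 and 699 CPM in other cells. None of the 15 migration genes eligible for the male against female comparison was 2-fold apart between the libraries. Over all 3306 eligible genes the shares were 1.72% higher in male and 3.96% higher in female members, so few were to be looked for among 15. Without the keratin-carrying members Cxcr4, a chemokine receptor gene, passed that limit, with 113 CPM in male members and 227 CPM in female members.

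Among the 14 measured chemokine ligands, 2 (Ccl22 and Ccl17) were at least 4-fold higher in members in both libraries and 4 (Cxcl9, Ccl6, Ccl9 and Ccl24) at least 4-fold lower. Ccl22 had 5102 CPM (4947 to 5260) in male members and 2438 CPM (2282 to 2602) in female members, and was 72.0-fold and 90.1-fold above the other cells. Ccl17, the other CCR4 ligand, had 1370 CPM in male members and 954 CPM in female members, in 61.8% and 61.1% of the cells. Type 2 dendritic cells held a like level, with 1175 CPM among male and 1062 CPM among female cells. Cxcl9, a ligand of the chemokine receptor CXCR3 on T cells, had 104 and 118 CPM in members, against 1249 and 565 CPM in other cells. The neutrophil attractant Cxcl2 had 481 and 403 CPM, against 2738 and 1501 CPM, and passed the 4-fold limit only in the male library. In GRCm38 coordinates Ccl22 lies on chromosome 8 at 94745590 to 94751699 and Ccl17 beside it at 94810453 to 94812036, both on the plus strand.

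Costimulatory ligands were present together with inhibitory ones. Tnfsf4 (OX40 ligand) had 241 CPM in male members and 156 CPM in female members, against 10.0 and 5.6 CPM in other cells, and was the only one of 7 measured costimulatory genes at least 4-fold higher in both libraries. Cd40, the receptor for T cell help, was 3.96-fold and 5.53-fold higher, Cd86 2.92-fold and 2.70-fold, and Cd80 2.99-fold and 2.03-fold. Of 11 measured inhibitory and regulatory genes, 3 were at least 4-fold higher in members in both libraries and 1, Arg1, at least 4-fold lower. Cd200, ligand of an inhibitory myeloid receptor, had 667 and 546 CPM, against 7.69 and 9.16 CPM in other cells. Aldh1a2, which makes retinoic acid, had 969 and 659 CPM, against 9.24 and 13.7 CPM, but was detected in only 69 of 123 male and 20 of 54 female members. Socs2, an inhibitor of cytokine receptor signalling, was 6.50-fold and 4.31-fold higher. Cd274, which encodes PD-L1, had 470 CPM (424 to 520) in male members and 516 CPM (446 to 594) in female members and was 2.0-fold and 2.46-fold above the rest.

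Among 10 measured cytokines and cytokine receptors, Il12b, Il15ra and Flt3 were at least 4-fold higher in both libraries and the inflammatory cytokine gene Tnf at least 4-fold lower. Il15ra, which presents IL-15 to lymphocytes, was 15.5-fold and 11.8-fold higher. Il12b, the p40 subunit shared by IL-12 and IL-23, was 58.6-fold and 101-fold higher, while Il12a, Il23a and Il27 had no UMI in any member; a count of 0 allows up to 3.72 CPM in male and 8.06 CPM in female members. Il1b was lower in members, at 1515 and 1011 CPM against 3708 and 1949 CPM.

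Of 15 measured NF-κB subunits and regulators, 4 were at least 4-fold higher in both libraries and none was 4-fold lower, with median log2 folds of 1.37 for male and 1.51 for female cells. NF-κB is the transcription factor family that drives dendritic cell maturation, and its non-canonical arm works through the kinase NIK, encoded by Map3k14, and the subunits encoded by Relb and Nfkb2. Relb had 365 and 374 CPM in members, against 60.0 and 41.9 CPM in other cells. Map3k14 was 4.80-fold and 6.91-fold higher, and Nfkb2 2.62-fold and 2.75-fold. The adaptor gene Traf1 was 5.13-fold and 8.21-fold higher and the ubiquitin ligase gene Birc2 6.26-fold and 8.04-fold. Nfkbia, which encodes an NF-κB inhibitor, was 1.32-fold and 1.88-fold higher.

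Because this list ran high as a group, promoter windows were searched for the κB consensus, on both strands. The windows come from RefSeq on GRCm38.p6 and run from 250 bases before to 50 bases after a gene's start. The consensus was present in at least 1 window of 7 of the 14 list genes with a window (50%), and in 5.14% of all 27025 genes and 4.51% of all 32851 windows. It was found for Nfkb2, Rel, Nfkbia, Nfkbie, Tnfaip3, Tnip3 and Bcl3. Of the 4 list genes at least 4-fold higher in both libraries, Map3k14, Traf1 and Birc2 had no match and Relb had no window. It was also found for 4 of 10 chemokine genes (40%), among them Ccl9 and Cxcl2, which were low in members. Further matches were in 3 of 18 further maturation genes (16.7%) and in 2 of 14 uptake genes (14.3%), which were mostly low. None of the 18 genes with a window among the 20 highest against the rest of the gate had a match. A match is a string of letters and not a shown binding site. Shown are a window of Nfkb2 (chr19:46304487-46304786, plus strand, one of its 3 windows), the window of Nfkbia (chr12:55492598-55492897, minus strand), and, as genes with none, those of Ccl22 (chr8:94745434-94745733, plus strand) and Fscn1 (chr5:142960105-142960404, plus strand). Capitals mark the consensus, and in Nfkb2 the first capital run holds 2 overlapping matches.
Nfkb2: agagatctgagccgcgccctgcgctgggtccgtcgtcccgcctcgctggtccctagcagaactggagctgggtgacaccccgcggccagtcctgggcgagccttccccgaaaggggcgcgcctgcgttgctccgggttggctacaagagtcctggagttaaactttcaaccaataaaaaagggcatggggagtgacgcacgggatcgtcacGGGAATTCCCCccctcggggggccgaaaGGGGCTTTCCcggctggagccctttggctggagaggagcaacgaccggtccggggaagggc
Nfkbia: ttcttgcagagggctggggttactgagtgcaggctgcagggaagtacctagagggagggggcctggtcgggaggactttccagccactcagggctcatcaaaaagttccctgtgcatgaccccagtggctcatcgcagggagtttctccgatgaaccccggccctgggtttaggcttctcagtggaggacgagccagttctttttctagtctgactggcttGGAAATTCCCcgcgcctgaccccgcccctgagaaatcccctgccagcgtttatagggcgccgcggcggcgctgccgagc
Ccl22: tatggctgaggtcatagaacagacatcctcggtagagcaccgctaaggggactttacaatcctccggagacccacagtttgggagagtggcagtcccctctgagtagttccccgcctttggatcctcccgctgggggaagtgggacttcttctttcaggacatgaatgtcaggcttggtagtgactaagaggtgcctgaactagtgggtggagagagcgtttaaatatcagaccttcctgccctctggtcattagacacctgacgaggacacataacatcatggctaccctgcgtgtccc
Fscn1: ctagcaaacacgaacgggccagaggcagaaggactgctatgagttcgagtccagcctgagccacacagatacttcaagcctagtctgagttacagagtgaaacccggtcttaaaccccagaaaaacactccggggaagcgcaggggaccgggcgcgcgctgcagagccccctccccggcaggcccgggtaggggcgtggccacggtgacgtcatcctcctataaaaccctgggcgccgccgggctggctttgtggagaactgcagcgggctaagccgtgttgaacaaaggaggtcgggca

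Further genes known from mature dendritic cells were high as a group: 9 of 16 measured were at least 4-fold higher in both libraries and none was 4-fold lower. Tmem123, a cell surface mucin-like protein, had 4595 CPM in male members and 3959 CPM in female members, in 120 and all 54 cells, against 426 and 455 CPM in other cells. Serpinb6b and Serpinb9, intracellular protease inhibitors, had 1714 and 1892 CPM in male members and 1285 and 1470 CPM in female members, against 78.1 and 175 CPM in the other male cells and 47.8 and 112 CPM in the other female cells. Stat4, a transducer of IL-12 signals, was 12.5-fold and 16.5-fold higher. Slco5a1, of the organic anion transporter family, had 50.8 CPM in male members and 45.7 CPM in female members, in 24 and 13 cells, against 0.253 and 0.162 CPM in other cells.

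Other genes among the 20 highest against the rest of the gate had a wide spread of known roles. Adcy6, an adenylyl cyclase, was 144-fold and 149-fold higher, Mreg, known from melanosome transfer, 71.1-fold and 66.1-fold, and Slc27a3, of the fatty acid transporter family, 88.5-fold and 51.3-fold. Slc4a8, a bicarbonate transporter, was 68.7-fold and 44.0-fold higher, the adhesion receptor gene Adgrg6 38.7-fold and 46.2-fold, and Ly75, the endocytic receptor DEC-205, 30.5-fold and 35.9-fold. H2-Eb2, a class II beta chain gene, was 36.2-fold and 79.2-fold higher, with reads that near-identical class II genes could share. Lad1 was 59.3-fold and 50.9-fold higher, Strip2 40.5-fold and 96.5-fold, Adam11 68.0-fold and 35.8-fold, and Tmtc2 36.6-fold and 28.3-fold.

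Uptake genes were low. Members had been chosen with a limit on C1q, which keeps out C1q-high phagocytes, so this list is not free of the selection. Of 17 measured uptake and pattern recognition genes, 13 were at least 4-fold lower in members in both libraries, with median log2 folds of -3.31 for male and -2.56 for female cells. Mrc1, the mannose receptor, had 43.4 CPM in male members and 129 CPM in female members, against 1120 and 2083 CPM in other cells. Lyz2 (lysozyme) had 291 and 607 CPM, against 6081 and 4324 CPM, and Cd68 had 95.5 and 229 CPM, against 1010 and 1349 CPM. The T cells of the same gate had 105 and 387 CPM of Mrc1, 778 and 1007 CPM of Lyz2 and 179 and 418 CPM of Cd68, so members stood at or below a cell type that should lack these genes. Among the 10 genes lowest against the rest were Itgam (CD11b), with 17.4 and 26.9 CPM against 458 and 476 CPM, and the monocyte receptor Ccr2, with 13.6 and 13.4 CPM against 246 and 295 CPM. The others of these 10 had 1 to 9 UMIs in the members of a library: Selenop, Maf, Gzma, Cd180, Ms4a6b, Nkg7, Lair1 and Cd300ld.

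Antigen presentation split by class. Of 9 measured class II genes none was 4-fold higher and H2-DMb1, part of the peptide exchange chaperone, was at least 4-fold lower in both libraries, with list medians of -0.93 and -0.48 log2. H2-Ab1 had 3710 CPM in male members and 5188 CPM in female members, against 9984 and 9328 CPM in other cells, and 16724 and 17541 CPM in type 1 dendritic cells. Class I genes had medians of 0.31 and 0.48 log2 over 12 genes. H2-D1 had 4405 and 5037 CPM in members, against 3319 and 3752 CPM in other cells. The immunoproteasome gene Psmb8 was 1.71-fold and 2.59-fold higher.

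**Figure D3:**
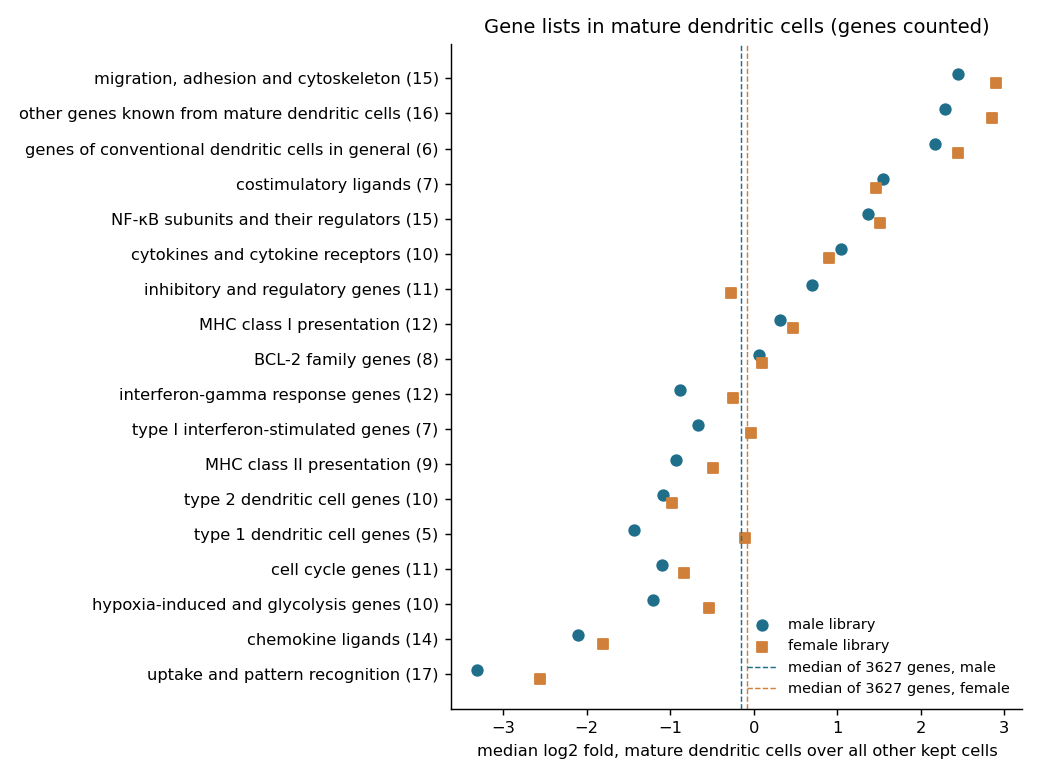
Median log2 fold of 18 gene lists (rows, number of measured genes in brackets) in mature dendritic cells over all other kept cells, in the male library (circles) and the female library (squares), with dashed lines at the medians of all 3627 genes. Migration stood highest at 2.45 and 2.91, and uptake and pattern recognition lowest at -3.31 and -2.56. The migration list holds the selection genes Ccr7 and Fscn1 and the label marker Cacnb3. The C1q limit of the selection keeps out C1q-high phagocytes.

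Genes that divide the conventional dendritic cells gave a mixed picture. Of 5 measured type 1 genes, 1 was at least 4-fold higher than in the rest in both libraries and 1 lower. Their median log2 folds were -1.43 for male and -0.10 for female cells. Of 10 measured type 2 genes, 0 were 4-fold higher and 4 were 4-fold lower in both, with medians of -1.09 and -0.98. The type 1 and type 2 genes named below are examples and do not stand for their lists. Zbtb46, Dpp4 and Flt3, of dendritic cells in general, were 9.09-fold and 19.3-fold, 7.72-fold and 10.5-fold, and 10.4-fold and 29.2-fold higher in members than in the rest. Xcr1 and Clec9a, which mark type 1 cells, had 9.9 and 6.2 CPM in male members and 5.4 and 5.4 CPM in female members, against 693 and 399 CPM in male type 1 cells and 737 and 310 CPM in female type 1 cells. Cd209a, which marks type 2 cells, had 2.5 and 13.4 CPM in members, against 1528 and 1570 CPM in type 2 cells. Irf8, the transcription factor that type 1 cells need, had 930 and 1035 CPM in members, a level near the 1101 and 784 CPM of type 1 cells and above the 183 and 224 CPM of type 2 cells. S100a4 had 800 and 1046 CPM in members, nearer to type 2 cells, with 829 and 1193 CPM, than to type 1 cells, with 33 and 124 CPM. Batf3, another type 1 factor, had 188.5 and 118 CPM in members, against 82 and 101 CPM in type 1 cells.

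Il12b was detected in a minority of members. It had at least 1 UMI in 28 of 123 male members and 8 of 54 female members, and at least 2 UMIs in 23 and 5. Thinned to 2000 UMIs per cell, 19.8% of 111 male members and 9.80% of 51 female members kept a UMI, while 0 of 573 male and 0 of 353 female T cells had one. A single cell held 159 of the 521 male UMIs and another 48 of the 73 female UMIs. Members were then divided by Il12b, after its values had been seen; the 5 male and 3 female cells with 1 UMI were left out. Irf8 had 1713 CPM in male cells with at least 2 Il12b UMIs and 727 CPM in male cells with 0, and 1890 and 958 CPM in female cells. Bcl2l14, a BCL-2 family gene, had 1047 CPM with Il12b and 309 CPM without in the male library, and 1672 and 146 CPM in the female library. Ccl22 had 7401 and 4007 CPM in male cells with and without Il12b, and 4071 and 2317 CPM in female cells, where 1 cell held 71 of 112 UMIs and the level without it was 1731 CPM, below that of cells without Il12b. The endocytic receptor gene Ly75 had 1009 and 629 CPM in male cells with and without Il12b, and 1018 and 522 CPM in female cells. S100a4, a calcium-binding protein gene, was lower with Il12b, at 318 CPM against 952 CPM in male cells and 654 CPM against 1120 CPM in female cells. Tmem176b was also lower, at 268 CPM against 803 CPM in male cells and 509 CPM against 709 CPM in female cells. Ccl17 did not keep 1 direction, with 1414 and 1220 CPM in male cells with and without Il12b and 400 and 1048 CPM in female cells. The female class with Il12b held 5 cells. Leaving out any 1 cell of the class with Il12b in either library kept the direction of Irf8, Bcl2l14, Serpinb9, Rgs1, Ly75, Cd40 and S100a4. It turned that of Ccl22 and Scin (57.3 CPM) and of Tmem176a and Tmem176b (both up to 802 CPM) in female cells, and that of Ccl17 in male cells (1080 CPM).

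**Figure D4:**
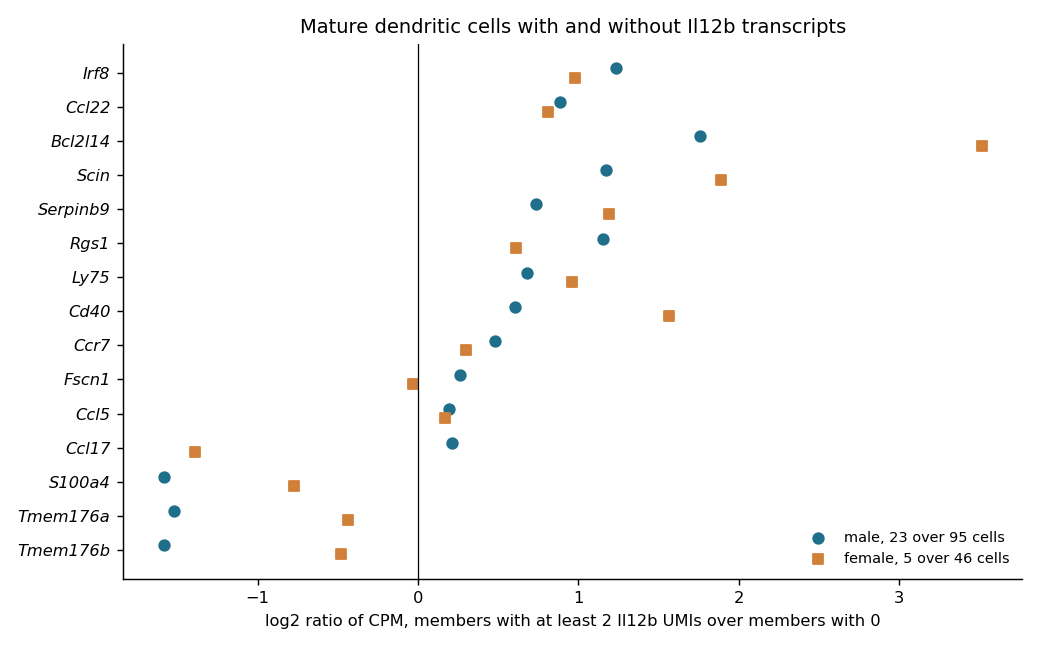
Log2 ratio of CPM (horizontal axis) for 15 genes in members with at least 2 Il12b UMIs over members with 0, in the male library (circles, 23 over 95 cells) and the female library (squares, 5 over 46 cells). Irf8, Ccl22, Bcl2l14, Scin, Serpinb9, Rgs1, Ly75 and Cd40 lay above 0 and S100a4, Tmem176a and Tmem176b below 0 in both libraries, while Ccl17 lay on opposite sides. Leaving out 1 cell turned the female points of Ccl22, Scin, Tmem176a and Tmem176b and the male point of Ccl17.

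Male and female members lay within 2-fold of each other in most genes. Of 3306 genes with at least 50 UMIs, 94.3% lay within 2-fold, 57 (1.72%) were higher by 2-fold or more in male members and 131 (3.96%) in female members. In 4 of the 57 and 35 of the 131, over 50% of the UMIs in the higher library came from 1 cell. Without the 3 keratin-carrying members, 66 of 3137 genes were higher in male members and 85 in female members; 39 of the 57 and 58 of the 131 kept their call.

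Ccl5, a chemokine that attracts T cells, differed between the libraries in the share of cells and in the UMIs per cell. It had 0 to 247 UMIs per male member (median 9) and 0 to 51 UMIs per female member (median 3). The level was 3924 CPM (3788 to 4063) in male members and 995 CPM (896 to 1101) in female members, a ratio of 3.95 (3.54 to 4.41). T cells of the same libraries had 1498 and 875 CPM, and type 1 and type 2 dendritic cells at most 54.3 CPM. Over the alternatives the log2 ratio of Ccl5 stayed between 1.36 and 2.16. Ccl5 lies on chromosome 11 at 83525778 to 83530518, minus strand.

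Il12b had 646 CPM in male members (592 to 704) and 196 CPM in female members (154 to 247), a ratio of 3.29 (2.57 to 4.27). Its log2 ratio of 1.72 was 0.79 without the 5% of members with most UMIs and 0.87 with the stricter C1q limit, both under 2-fold. The Ccl22 ratio of 2.09 (1.95 to 2.25) was also near the threshold: its log2 value of 1.07 fell below 1 under 6 alternatives, down to 0.64 with the mean of per-cell CPM. Fas, the death receptor, had 126 CPM in male members and 26.9 CPM in female members, in 44 and 7 cells, a ratio of 4.71 (2.46 to 10.1); T cells had 31.3 and 28.1 CPM. Npr1, a natriuretic peptide receptor, had 346 and 121 CPM, a ratio of 2.86 (2.08 to 4.01), and Scin, an actin-severing protein, 401 and 167 CPM, a ratio of 2.40 (1.83 to 3.21). The transcription factor genes Pou4f1, Hhex and Insm1 had ratios of 5.81 (2.36 to 18.5), 4.23 (1.82 to 12.02) and 3.37 (1.73 to 7.32), and Rnd3, a small GTPase gene, one of 3.49 (1.58 to 9.11). All 4 rested on 5 to 10 UMIs in female members. With the stricter C1q limit the log2 ratios of Insm1 and Rnd3 were 0.72 and 0.91, under 2-fold, and that of Rnd3 was 0.26 with both markers at 1 UMI or more and 0.58 when thinned.

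Of the remaining genes among the 12 largest male ratios, 4 had most of their UMIs in 1 cell. Hand1 had 76 of its 77 male UMIs in 1 cell, Dgkk 47 of 51, Il33 44 of 48 and Rrm2 53 of 73, while Pclaf had 33 of 70; the cell cycle genes Rrm2 and Pclaf were seen in 8 and 10 male members. Without the top cell of each library their log2 ratios were 3.15 for Rrm2 and 3.03 for Pclaf, on 1 and 2 female UMIs, and over all members 2.27 and 2.01. Over the alternatives the log2 ratio of Rrm2 ran from -0.00956 to 4.86 and that of Pclaf from 0.10 to 4.80, with the lowest values at 1 UMI or more of both markers for Rrm2 and when thinned for Pclaf.

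**Figure D5:**
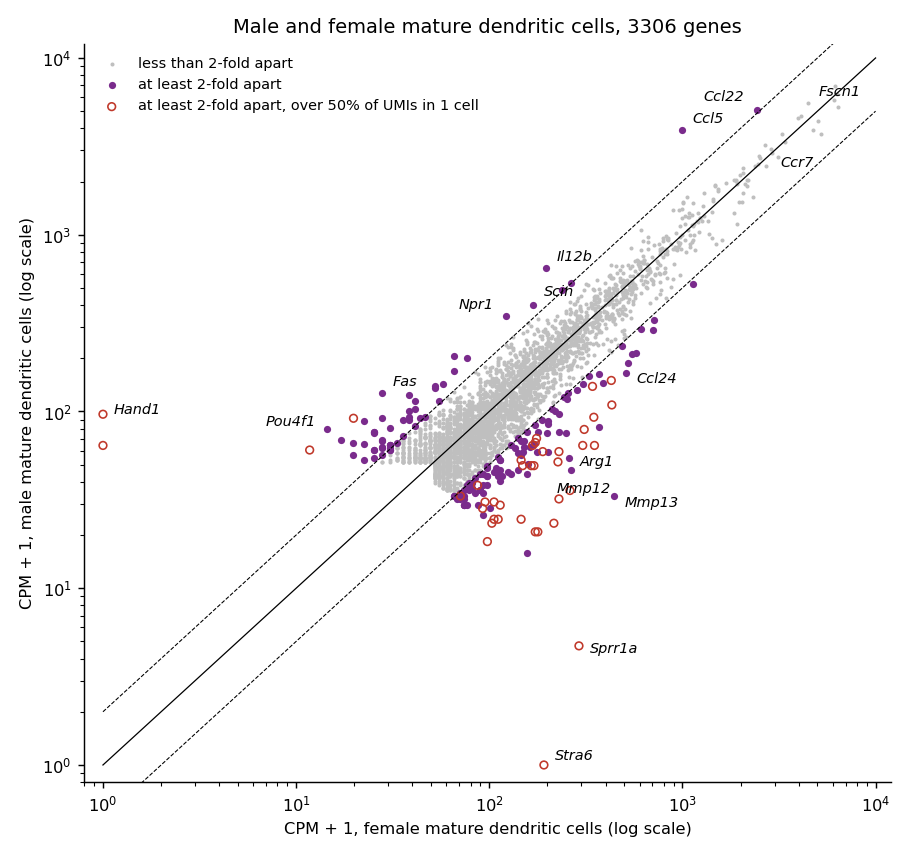
CPM + 1 of 3306 genes in female (horizontal) and male (vertical) mature dendritic cells on log axes, with a solid line at equal levels and dashed lines at 2-fold. Filled purple points were at least 2-fold apart and open red points had over 50% of their UMIs in 1 cell of the higher library; Ccl5 lay at 3924 and 995 CPM in male and female cells and Mmp13 at 32.2 and 441 CPM.

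Among the genes higher in female members, 2 kinds are described here. The first are genes that macrophages are known to make. Mmp13, a collagenase, had 32.2 CPM in male members and 441 CPM in female members, 13.7-fold higher in female members (9.0 to 21.6). Mmp12, the macrophage elastase, had 45.9 and 263 CPM, and Arg1, arginase, had 53.3 and 258 CPM. Ccl24, an eosinophil attractant, had 165 CPM in male members and 508 CPM in female members, and Ccl6 had 74.4 and 250 CPM. Male and female T cells had 94.1 and 674 CPM of Mmp13, 174 and 467 CPM of Mmp12, 157 and 755 CPM of Arg1, 203 and 1002 CPM of Ccl24, and 252 and 326 CPM of Ccl6. Members lay below T cells in each case, and the part of background RNA in these differences was not tested. Of the 131 genes, 50 were at or below the female T cell level, as were 36 of the 85 without the keratin-carrying members; the other 49 of the 85 lay above it. Of the 57 male-higher genes, 13 were at or below the male T cell level. The same count over all eligible genes is not given here, so these counts have no base share beside them. T cells were also shallower, with medians of 2587 UMIs in male and 2977 UMIs in female cells. A counted gene can be high in T cells, as Ly6a was at 1344 and 1607 CPM in male and female T cells.

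The second kind had many of its UMIs in 1 cell. Sprr1a, an epithelial envelope gene, had 99 of its 108 female UMIs in 1 cell, Stra6 63 of 71, the collagen genes Col6a1 and Col6a2 61 of 80 and 59 of 66, Ero1l 84 of 97, Hbegf 65 of 85, Slc2a1 49 of 64, Emp2 43 of 54, and Has2 all 36. Plau, urokinase, had 25 of 58. Without the 3 keratin-carrying members few UMIs of these genes were left. Col6a2 and Ero1l turned to the male side, with log2 ratios of 0.33 and 0.21, on 3 and 22 male UMIs and 1 and 8 female UMIs. Emp2 and Has2 had 1 and 4 male UMIs and 0 female UMIs, Stra6 had 0 male and 2 female UMIs, and Sprr1a had 2 in each. Plau, Slc2a1 and Hbegf stayed more than 2-fold higher in female members, with log2 ratios of -2.34, -1.74 and -1.51, on 8, 10 and 5 male UMIs and 17, 14 and 6 female UMIs.

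Genes 2-fold apart between the libraries were also counted by list. Over all 3306 genes, 1.72% were higher in male members and 3.96% in female members. None of the 15 migration, 14 NF-κB, 18 further maturation, 7 costimulation, 9 class II, 11 class I or 8 BCL-2 family genes eligible for the comparison was 2-fold apart. At the shares over all genes, lists this small would hold few such genes, so a count of 0 does not set a list apart. Without the keratin-carrying members 1 migration gene, Cxcr4, and 1 maturation gene, the transcription factor gene Etv3 (456 CPM in male and 936 CPM in female members), were higher in female members. The medians of log2 male over female of these 7 lists lay between -0.26 for class II and 0.41 for costimulatory ligands, against -0.06 for all 3306 genes. The 11 chemokine ligands had 2 higher in male and 2 in female members. Inhibitory and regulatory genes had 1 and 2 of 10, and cytokines and their receptors 2 and 0 of 9. Macrophage markers had 0 and 4 of 5. Of 13 uptake genes, Cd36 was higher in male members, and Mrc1, Fcgr2b, Lyz2, Cd68 and Ctsd in female members. Without the keratin-carrying members 12 uptake genes were eligible, with 2 higher in male and 4 in female members. Of 6 type I interferon-stimulated genes, Bst2 (tetherin) was at least 2-fold higher in female members, at 69.4 CPM in male members and 175 CPM in female members, and without the keratin-carrying members none was. Of 9 hypoxia and glycolysis genes the 2 higher in female members were Slc2a1 and Ero1l, and without the keratin-carrying members none was. Of 10 cell cycle genes, Pclaf and Hmgb2 were higher in male members, at 86.8 and 74.4 CPM against 21.5 and 24.2 CPM in female members, and Ube2c in female members, at 48.4 CPM in male members and 148 CPM in female members. Without the keratin-carrying members 6 cell cycle genes were eligible, and 3 were higher in male members and none in female members. The median log2 ratio was 1.12 over these 6 genes and 0.37 over the 10 eligible with all members. The medians cover different genes, so they do not show a shift in the same genes. Top2a, a topoisomerase of dividing cells, then had 85 CPM in male members and 15.3 CPM in female members, a ratio of 5.54 (2.26 to 17.6). Hmgb2 then had 65.7 and 18.4 CPM and Mki67, a proliferation marker gene, 86.3 and 30.7 CPM. The female levels of these 3 genes rested on 5, 6 and 10 UMIs. They lay under the limit of 50 CPM, so the 3 genes were eligible only through their male levels. With the keratin-carrying members kept, Top2a and Mki67 were less than 2-fold apart. Male and female T cells had 633 and 466 CPM of Top2a, above the members in both libraries.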

How the data were processed

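Cells sorted as CD45-positive or CD45-negative from dissociated MB49 tumours were profiled on the BD Rhapsody system, per the labels' protocols. CASAVA 1.8, UMI-tools, Seurat and the mm10 build are credited to the submitters' processing notes, where no aligner was found. The authors deposited UMI counts for each gene and cell, whole numbers that are not normalized. The male CD45-positive library totalled 40644787 UMIs over 5771 barcodes and the female one 37705608 UMIs over 5169. A gene that only one library lists was set to 0 in the other. Cell names are running numbers, so barcodes shared between libraries could not be counted. No doublet caller was run; alternatives remove possible doublets.

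UMIs were added up over the cells of a population and scaled to CPM, with exact Poisson intervals, exact conditional intervals for ratios and Clopper-Pearson intervals for shares (Python 3.11.15, numpy 2.4.6, scipy 1.17.1, pandas 2.3.3). They treat UMIs as independent, which fails where 1 cell holds most. Eligible genes had 50 or more UMIs over both libraries and 50 or more CPM in one of them. Xist, Tsix, Y-linked, mitochondrially encoded, ribosomal protein, haemoglobin, immunoglobulin, T cell receptor and unnamed genes were left out. Other X-linked genes stayed in. In ratios, 3 UMIs stood in for a count of 0. Comparison populations were type 1 cells (1 UMI each of Xcr1 and Clec9a), type 2 cells (2 UMIs of Cd209a), C1q-high phagocytes (C1q at least 1% of UMIs) and T cells (2 UMIs of Cd3 genes, C1q below 0.3%). Genes named are those with the 12 largest and 12 smallest ratios of male over female, the 20 highest and 10 lowest folds against the rest (ranked by the library with the fold closer to 1) and members of 28 gene lists. The members and lists were chosen with earlier results of these data known. The ratio code was run on simulated Poisson counts with known folds. These had no cell structure, so the run does not cover genes with most UMIs in 1 cell. Gene positions are from GENCODE M21. Some genes known from these cells are not analysed here.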

Additional observations from a re-analysis of the deposited data

Results flagged for a closer look

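Cells that met the rule were also seen outside the gate that the comparisons use. In the CD45-negative libraries, 34 of 5496 kept male cells (0.619%, exact interval 0.429 to 0.863%) and 49 of 3905 kept female cells (1.25%, 0.930 to 1.66%) met the same selection rule, more than a count of 0 allows (0.0546% and 0.0768%). Passing that limit says nothing on cell type. The male cells held 31 Ccl22 UMIs in all and the female cells 0, at medians of 24389.5 UMIs per male cell and 21913 per female cell. In the CD45-positive gate the 123 male and 54 female members held 4114 and 907 Ccl22 UMIs, at medians of 5720 and 5995.5 UMIs per cell. Whether the cells of the CD45-negative libraries are dendritic cells was not tested.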

How the results depend on the processing

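Results were recomputed under the 12 alternatives that applied to them and others added after the data had been seen (leaving out members with at least 10 UMIs of Krt8 and Krt18, genes with over 50% of UMIs in 1 cell, and single cells of the edge and Il12b classes). No paired analysis was possible because each group had 1 library, and no replicate could be left out for the same reason. The share ratio was 4.27 with C1q below 0.1% and lay between 1.81 and 2.05 otherwise. Genes higher in the male library (57) numbered 92 with both markers at 3 UMIs or more, 156 with C1q below 0.1%, 32 when thinned, 88 by the mean of per-cell CPM, 728 with no minimum and 7 with at least 200 UMIs. Genes higher in the female library (131) numbered 334 with both markers at 1 UMI or more, 75 at 3 or more, 78 without the deepest 5% of members, 18 when thinned, 1133 with no minimum, 19 with at least 200 UMIs and 85 without the keratin-carrying members. Against the rest of the gate only the lack of a minimum moved the counts past 1.5 times, to 1904 higher and 390 lower. Among named genes, 20 log2 male:female values changed sign, 6 of them only because 3 UMIs stood in for a female count of 0 beside 1 to 6 male UMIs; in these the measured direction did not change. With both markers at 1 UMI, Rrm2 was -0.00956. At 3 UMIs, Col6a1 was 1.26, Col6a2 2.67, Ero1l 0.48, Hbegf 0.99, Emp2 1.33 and Has2 0.89. With C1q below 0.1%, Col6a1 was 0.18, Col6a2 1.59, Hbegf 1.24 and Emp2 0.26. Without the deepest members, Ero1l was 0.72. Without the keratin-carrying members, Col6a2 was 0.33 and Ero1l 0.21. The cause of these 14 was not tested. The 6 with a female 0 were Il33 without the deepest members (-1.13), without its top cell (-0.76) and without the keratin-carrying members (-0.84), Dgkk thinned (-0.12) and without its top cell (-0.70), and Hand1 without its top cell (-2.70). With 54 female members, depth limits genes under about 50 CPM.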
